A study of Bactrocera dorsalis with 16 samples.

Results

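Predicted candidate miRNAs are short sequences that a miRNA prediction program reports when they match no catalogued miRNA. In the deposited table of small RNAs from the oriental fruit fly, Bactrocera dorsalis, they carry names that begin with PC-5p or PC-3p, for the arm of the predicted hairpin. The candidates described here are the 105 distinct PC sequences, of 373, with a normalised value of at least 10 in at least 2 of 16 libraries. PC-3p-204_49387 was left aside and is not among the 373. Entries with the same sequence were summed, which joined 2 entries for 5 candidates. The table as a whole held 747 distinct sequences in 788 entries. The candidates were chosen by their level, so their levels are a description. The values of the members nearest the threshold were close to those just under it: the second highest value was 10.11 for PC-5p-466948_12, 10.11 for PC-5p-433740_13 and 10.55 for PC-5p-190753_36, against 9.98 for PC-3p-75864_124, 9.95 for PC-3p-223009_29 and 9.43 for PC-3p-163227_44. The other 268 PC sequences fell below the threshold.

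A miRNA is cut from one arm of a hairpin precursor and guides a silencing complex to messenger RNAs, mainly through its seed, bases 2 to 8 counted from its 5′ end. The insect fat body is the organ of storage and metabolism that makes yolk proteins, and the ovary takes these up as eggs mature. Program predictions can hold true miRNAs, offset variants of known ones, and fragments of other RNAs. No genome position is given for the candidates, and their precursors were not examined here.

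The study compared ovary with fat body of adult female flies at days 1, 5, 9 and 13 after eclosion. Each of the 8 groups had 2 libraries that the series' text calls biological replicates, and the number of flies pooled is not given in the sources used here. By the design text there were 8 samples and by a protocol 9 libraries, whereas 16 are listed, and how these numbers relate is not stated, so replicates may not all be independent. All flies were kept on a diet of yeast extract and sugar, and the labels name no mutation or agent in any group. Each library is a whole tissue with its mixture of cell types, and in such bulk samples fewer cells of a type and less RNA per cell cannot be told apart. Values are the authors' normalised signal. They moved in steps of 1 read, from which 193982 to 1864991 reads per library were recovered, with the 4 day 5 libraries the shallowest at 193982 to 416595 reads.

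Before the results, 2 libraries must be set apart. Outside them, a list of ovary miRNAs (miR-989, known in Drosophila for its part in the migration of border cells during oogenesis, with miR-318, miR-994, miR-92a, miR-92b, miR-286 and miR-309) summed to between 4705 and 275029 in ovary libraries and between 276 and 4840 in fat body libraries. The library labelled fat body day 9 replicate 2 had 207523 for this list, against 4840 in fat body day 9 replicate 1. The library labelled ovary day 9 replicate 2 had 34498, against 195583 in ovary day 9 replicate 1. Outside these 2 libraries the ranges of the sum overlapped slightly, and its members did not all follow it. At day 5, miR-318 had 36.8 and 48.6 in ovary against 82.9 and 150 in fat body. In the same libraries, miR-994 had 157 and 216 against 230 and 560. At days 1, 5 and 13, miR-989, miR-92a, miR-92b and miR-286 were higher in both ovary libraries than in both of fat body. A fat body list (miR-8, a regulator of growth signalling in the Drosophila fat body, with miR-274, miR-252, miR-14 and miR-277) summed to between 38384 and 82344 in the other ovary libraries and between 176778 and 367675 in the other fat body libraries. It stood at 191807 in ovary day 9 replicate 2 and at 84921 in fat body day 9 replicate 2. Of its members, only miR-14 overlapped between the tissues, with 7369 to 15344 in the other ovary libraries and 10124 to 54566 in the other fat body libraries. Fat body day 9 replicate 2 thus went against its label on the ovary list and lay between the tissues on the fat body list. Ovary day 9 replicate 2 went against its label on the fat body list. On the ovary list it lay within the ovary range, below ovary day 9 replicate 1. The values of both libraries are given apart below. The muscle list (miR-1 and miR-133) ranged over 3962 to 23622 in ovary and 40614 to 89872 in fat body, nearly all of it miR-1, and the nerve list (miR-124, miR-137 and miR-1000) over 50.6 to 725 in ovary and 316 to 1073 in fat body, again without the day 9 second replicates. The part of muscle RNA in the differences between tissues was not tested.

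Sequences are printed for the candidates whose structure or tissue difference the results turn on. They are in DNA letters as deposited, and the seed is in capitals. The first set holds candidates that lie on a known miRNA, each followed by a deposited sequence it overlaps.
PC-3p-56906_181: tAGCACCAcatgattcggcttta
bdo-miR-995: tAGCACCAcatgattcggctt
PC-3p-38740_298: tAGCTGCCttgtgaagggcttcct
bdo-miR-980_R-2: tAGCTGCCttgtgaagggctt
PC-3p-112600_72: tGTCATGGaattgctctttttga
dme-miR-281-3p_1ss18CT: tGTCATGGaattgctctttttgt
PC-5p-119439_67: cTGTCTTTttccgcttactgtcg
bdo-miR-316: tGTCTTTTtccgcttactgtcg

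In the second set, candidates named for opposite arms are complementary to each other. Capitals mark here, in place of the seed, the stretch of each that pairs without mismatch with PC-3p-58057_177 (for the PC-5p names) or with PC-5p-36257_323 (for the PC-3p names).
PC-5p-36257_323: CCTCGAATAACGTTGTAAGTgct
PC-5p-11705_1265: CTCGAATAACGTTGTAAGTgc
PC-3p-58057_177: ACTTACAACGTTATTCGAGGcgt
PC-3p-50770_211: ACTTACAACGTTATTCGAGGcg
PC-3p-106115_78: CTTACAACGTTATTCGAGGcgt

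The third set holds candidates with a level in ovary far above that in fat body, again with the seed in capitals.
PC-3p-13290_1089: tAAAACGTtgtcctatatc
PC-5p-45903_240: tCAGAATTggaccgtcgagcgcgt
PC-5p-70062_138: tGATATTCctctgcattacgcttc
PC-5p-55029_190: tGCTGTACattttgcaattgc
PC-3p-46360_237: tCGGACAGaaaggcctctatcgt
PC-3p-113416_72: tGAGGATAtgtatatatgta

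The candidates were mostly shorter than known miRNAs. Of the 105, 53 had 18 or 19 bases (50.5%), 21 had 20 or 21 bases, and 31 had 22 to 26 bases. Among the 215 sequences with a known miRNA name that passed the same threshold, 5.12% had 18 or 19 bases and 76.7% had 22 or more. A first base T, common in insect miRNAs, was found in 54.3% of candidates and 54.9% of known names. By arm, 50 candidates were named PC-5p and 55 PC-3p, and no number was held by both a PC-5p and a PC-3p name. The 105 candidates had 104 distinct seeds, the shared one belonging to PC-3p-58057_177 and PC-3p-50770_211.

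Together the candidates made up a small part of each library. Their summed share averaged 0.779% ± 0.403 in ovary libraries and 0.536% ± 0.208 in fat body libraries (SD, n = 8 each). Without day 9 replicate 2, it was 0.813% ± 0.423 in ovary and 0.495% ± 0.187 in fat body (SD, n = 7 each). In ovary, the share was 0.708% and 0.365% at day 1, 1.55% and 0.816% at day 5, 0.435% in day 9 replicate 1, and 0.621% and 1.20% at day 13. In fat body, it was 0.288% and 0.305% at day 1, 0.843% and 0.552% at day 5, 0.425% in day 9 replicate 1, and 0.509% and 0.542% at day 13. Ovary day 9 replicate 2 had 0.543%, and fat body day 9 replicate 2 had 0.822%. The ranges of the tissues overlapped, and at days 1, 5 and 13 the gap between the 2 ovary libraries exceeded the gap between the tissue means.

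**Figure D1:**
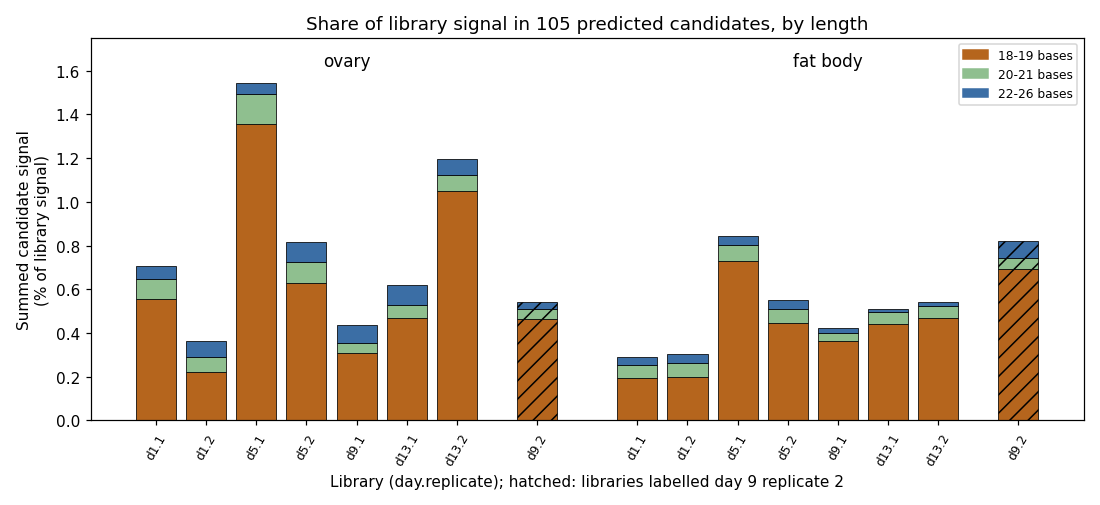
Summed signal of the 105 candidates as a percentage of all signal in each library, ovary left of fat body, days from 1 to 13, with the candidates split by length (colours) and the libraries labelled day 9 replicate 2 hatched and set apart. Sequences of 18 or 19 bases made up most of every bar, and the highest bar was ovary day 5 replicate 1 at 1.55%.

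Sequences of 18 or 19 bases carried most of that sum in every library, from 60.3% of candidate signal in ovary day 1 replicate 2 to 87.8% in ovary day 5 replicate 1. The share of the whole library held by candidates of 22 to 26 bases ranged over 0.0531% to 0.0926% in ovary and 0.0124% to 0.0426% in fat body, with no overlap between the 7 libraries of each tissue. On this measure ovary day 9 replicate 2 had 0.0329% and fat body day 9 replicate 2 had 0.0807%, each within the range of the other tissue. The PC-3p candidates held 0.233% to 1.23% of ovary libraries and 0.157% to 0.707% of fat body libraries. The PC-5p candidates held less, 0.132% to 0.319% in ovary and 0.0911% to 0.212% in fat body.

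A few sequences dominated. Over the 14 libraries other than day 9 replicate 2, 9 candidates had a mean of 100 or more, 43 a mean of at least 10 and under 100, and 53 a mean under 10. The most abundant was PC-3p-1179_12950 with a mean of 750, ahead of PC-3p-2481_6747 with 547, PC-5p-1954_8537 with 445, PC-3p-4072_4097 with 398, PC-3p-2124_7946 with 364, PC-3p-20717_641 with 192, PC-3p-8533_1829 with 178, PC-5p-11705_1265 with 111, PC-5p-8439_1855 with 105 and PC-3p-27304_459 with 83.4. Of these 10, 8 had 18 or 19 bases. PC-3p-1179_12950 itself had 295 and 118 at day 1, 700 and 447 at day 5, 307 in day 9 replicate 1, and 759 and 4024 at day 13 in ovary. Its fat body values were 122 and 229 at day 1, 414 and 262 at day 5, 484 in day 9 replicate 1, and 920 and 1422 at day 13. The tissues overlapped, 1 ovary day 13 library stood far above all others, and the day 9 second replicates had 642 in ovary and 1456 in fat body. In all 14 libraries, 44 candidates were above 0, while 7 were listed at 0 in all 7 fat body libraries and 1 in all 7 ovary libraries.

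By tissue and day of highest mean, with day 9 taken from replicate 1 alone, 57 candidates were highest in ovary and 48 in fat body. In ovary, 4 were highest at day 1, 6 at day 5, 7 at day 9 and 40 at day 13, and in fat body 2 at day 1, 16 at day 5, 6 at day 9 and 24 at day 13. The lengths were unevenly spread over these groups. Of the 31 candidates of 22 to 26 bases, 18 were highest in ovary at day 13 and 1 in fat body at day 13. Of the 53 candidates of 18 or 19 bases, 14 were highest in ovary at day 13, 18 in fat body at day 13 and 11 in fat body at day 5. The length classes were chosen after values were seen, and these counts are a description with no test.

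**Figure D2:**
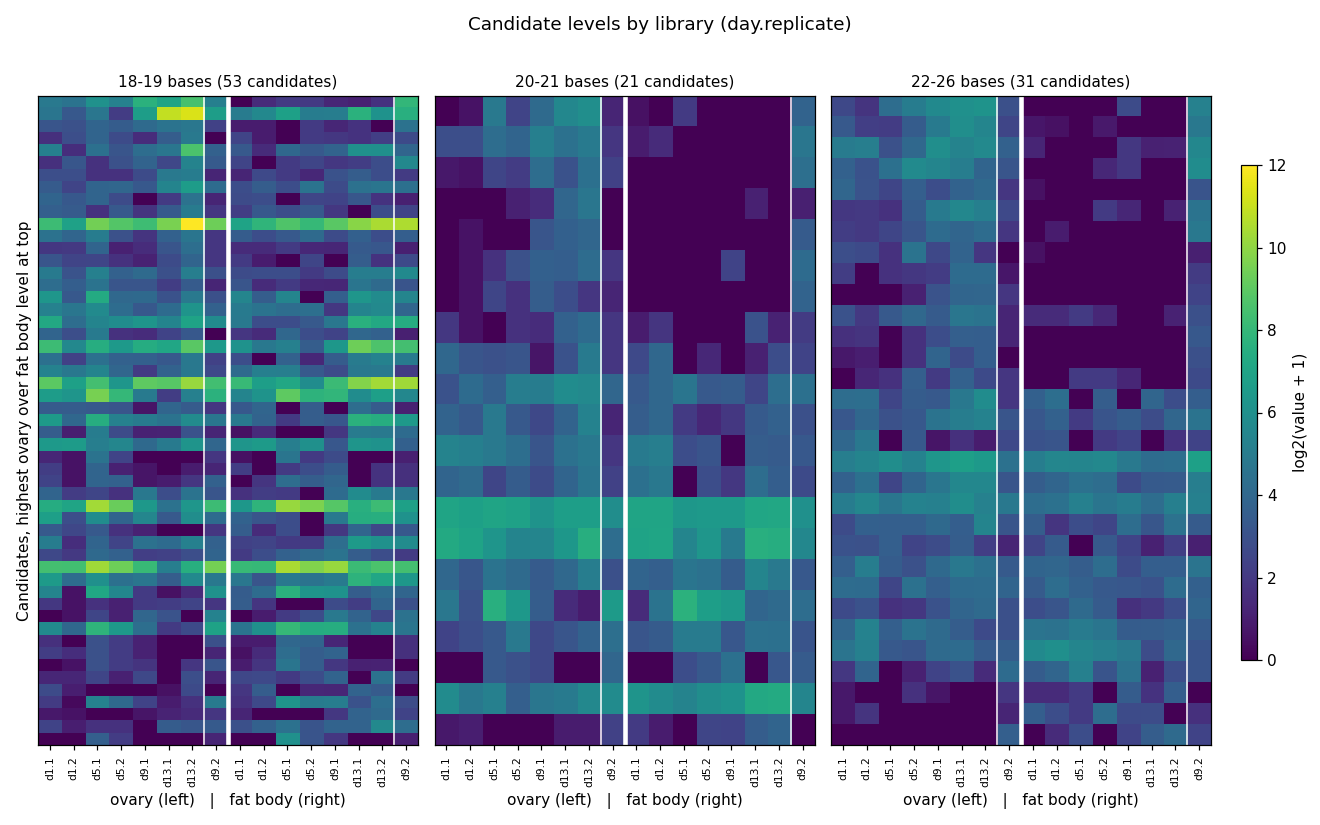
Level of every candidate (log2 of the normalised value + 1, colour scale) in each library, one panel per length class, with ovary left of fat body in each panel. Within a tissue, days run from 1 to 13 and the library labelled day 9 replicate 2 stands last behind a thin line. The top rows of the 20-21 and 22-26 base panels are bright in ovary and dark in fat body, except in fat body day 9 replicate 2, where they are bright.

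Some candidates were found in ovary at levels far above those in fat body. With the day 9 second replicates aside, all 7 ovary libraries lay above all 7 fat body libraries for 10 of the 105 candidates. No candidate showed the opposite. Of all 321 sequences tested, 8.72% showed the first order and 4.98% the second. The first order was thus about as frequent among the candidates as among all sequences tested. In addition, 31 candidates reached the level threshold in ovary libraries alone and 13 in fat body libraries alone. The count of candidates in the first order thus also describes how they were chosen. PC-3p-13290_1089 was the most abundant of the 10 candidates in that order. In ovary it had 28.0 and 23.1 at day 1, 66.8 and 37.3 at day 5, 200 in day 9 replicate 1, and 126 and 360 at day 13. Its fat body values were 0 and 1.77 at day 1, 3.07 and 3.07 at day 5, 1.44 in day 9 replicate 1, and 1.18 and 2.43 at day 13. The day 9 second replicates had 34.9 in ovary and 244 in fat body, so the library labelled fat body held the higher value. It averaged 120 ± 123 in ovary and 1.85 ± 1.11 in fat body (SD, n = 7 each).

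PC-5p-45903_240 had 5.03 and 2.46 at day 1, 18.4 and 31.7 at day 5, 51.2 in day 9 replicate 1, and 65.1 and 70.5 at day 13 in ovary. In fat body it was listed at 0 at days 1, 5 and 13, with 5.78 in day 9 replicate 1. The day 9 second replicates had 6.70 in ovary and 37.1 in fat body. The ovary values were lowest at day 1 and highest at day 13, and both day 1 values were below the single fat body value above 0. PC-5p-70062_138 behaved alike, with 9.34 and 3.69 at day 1, 3.45 and 10.2 at day 5, 28.4 in day 9 replicate 1, and 59.6 and 42.5 at day 13 in ovary, and no fat body value above 0.77 outside the day 9 second replicates, which had 4.69 in ovary and 26.7 in fat body.

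PC-5p-55029_190 was near 0 in both tissues at day 1, with 0 and 0.49 in ovary against 0.45 and 0 in fat body. Its ovary values were then 27.6 and 4.52 at day 5, 16.9 in day 9 replicate 1, and 45.3 and 59.7 at day 13. Fat body had 3.07 and 0 at day 5 and was listed at 0 in day 9 replicate 1 and at day 13. PC-3p-46360_237 peaked in ovary earlier, with 12.2 and 7.14 at day 1, 20.7 and 52.0 at day 5, 42.4 in day 9 replicate 1, and 33.2 and 13.6 at day 13, against at most 2.89 in the 7 fat body libraries. PC-3p-113416_72, named after its values were seen, had 6.47 and 6.40 at day 1, 18.4 and 13.6 at day 5, 34.9 in day 9 replicate 1, and 21.1 and 29.8 at day 13 in ovary, and at most 1.77 in fat body.

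Differences were fitted with limma to log2(value + 1) of all 321 sequences past the level threshold, with Benjamini-Hochberg adjustment over all of them. Log2 differences on this scale understate the change of low sequences. With the 4 days averaged, the log2 difference of ovary minus fat body was 3.93 ± 0.78 (SE) for PC-3p-13290_1089, 3.32 ± 0.48 for PC-5p-45903_240, 2.89 ± 0.63 for PC-5p-70062_138, 2.29 ± 0.64 for PC-5p-55029_190, 3.17 ± 0.58 for PC-3p-46360_237 and 2.91 ± 0.64 for PC-3p-113416_72. All 6 met the level threshold through ovary libraries, since in fat body no library outside day 9 replicate 2 reached 10, so the direction was fixed by how they were chosen and no p is given for it. Each was larger without the day 9 second replicates, at 5.07, 3.97, 3.78, 3.14, 3.94 and 3.91 in the same order of names. At day 13 alone, the log2 difference was 6.29 for PC-3p-13290_1089, 6.10 for PC-5p-45903_240, 5.73 for PC-5p-55029_190 and 5.68 for PC-5p-70062_138, again as a description.

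**Figure D3:**
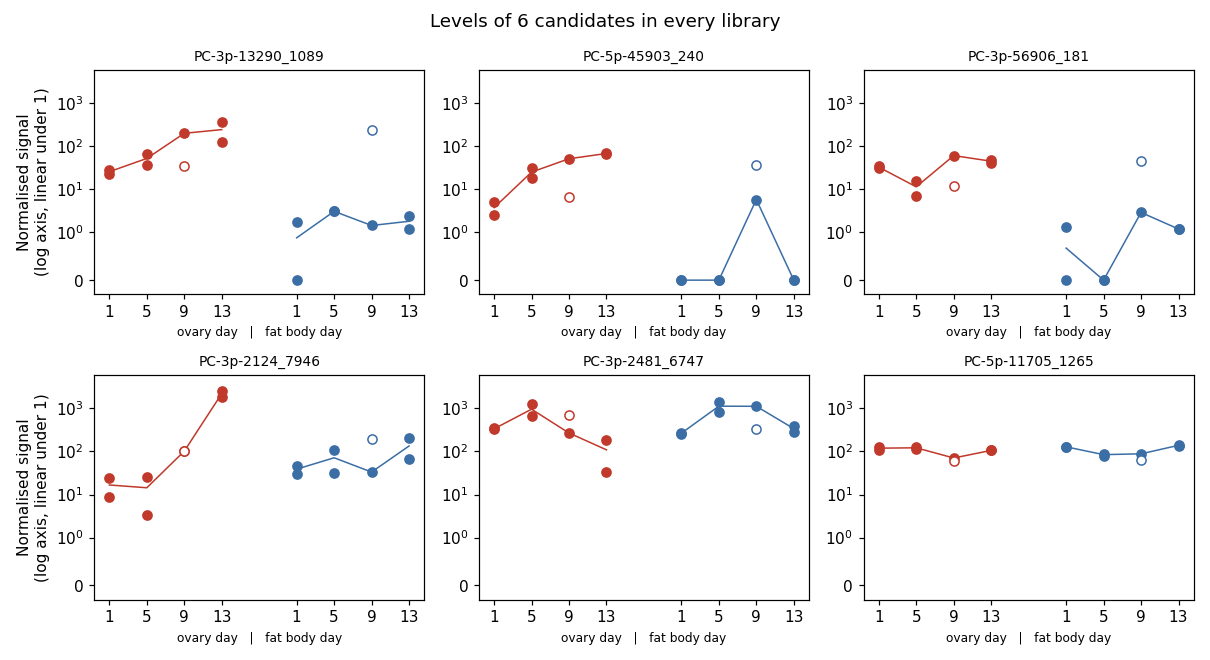
Normalised signal of 6 candidates by day (log axis, linear under 1), ovary in red left of fat body in blue, with 1 point per library, open points for the libraries labelled day 9 replicate 2, and lines through the means of the other libraries. The 3 upper candidates are high in ovary, and PC-3p-2124_7946 stands at 1881 and 2528 in ovary at day 13. PC-3p-2481_6747 is high at day 5 in both tissues, and PC-5p-11705_1265 lies between 59.0 and 143 everywhere.

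Over the mean of the 4 days, 24 of the 105 candidates differed between tissues, 20 higher in ovary and 4 lower, against 37.1% of all 321 sequences tested (24.6% higher and 12.5% lower). The candidates' median log2 difference was 0.33, beside 0.20 over all tested. Without the day 9 second replicates, 41 candidates passed, 27 higher and 14 lower, against 54.2% of all tested (34.6% higher and 19.6% lower). Leaving out fat body day 9 replicate 2 alone gave 37. On recovered reads, edgeR's quasi-likelihood test called 18 higher and 7 lower, against 20.6% and 15.6% of all tested, and DESeq2 called 14 higher and 11 lower, against 20.2% and 19.6%. These fits to recovered reads, here and below, left out ovary day 9 replicate 2 and kept fat body day 9 replicate 2. Of the 24 limma calls over all 16 libraries, 12 were among the 50 PC-5p and 12 among the 55 PC-3p candidates. By length, 3 of them were among the 53 of 18 or 19 bases, 6 among the 21 of 20 or 21 bases and 15 among the 31 of 22 to 26 bases. A low sequence that met the threshold through one tissue had to differ between tissues, and 44 candidates reached 10 in libraries of 1 tissue alone (31 in ovary and 13 in fat body, day 9 replicate 2 aside), so these counts, and those at single days, describe how the candidates were chosen as well as how they vary.

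At day 13, 34 candidates differed, 26 higher in ovary and 8 lower, against 44.9% of all tested (30.5% higher and 14.3% lower). By length, 4 of the 53 candidates of 18 or 19 bases were higher and 5 lower, 7 of the 21 candidates of 20 or 21 bases were higher and 2 lower, and 15 of the 31 candidates of 22 to 26 bases were higher and 1 lower. The medians of the log2 difference in these classes were -0.63, 1.16 and 2.15, beside 0.35 over all tested. The split of higher against lower was 27 to 3 with libraries rescaled to equal totals, against 32.1% and 9.97% of all tested, and 22 to 11 with TMM factors, against 26.5% and 18.4%. These scalings moved the median of all tested sequences by 0.22 and -0.35 (log2). On recovered reads it was 23 to 12 in edgeR, against 27.1% and 17.8%, and 18 to 9 in DESeq2, against 27.7% and 18.7%. Leaving out 1 of the 4 day 13 libraries left 17 to 20 calls (17 without ovary replicate 1, 20 without ovary replicate 2 and 17 without either fat body replicate), and without the day 9 second replicates there were 45, against 55.1% of all tested (31 higher against 35.5%, 14 lower against 19.6%).

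**Figure D4:**
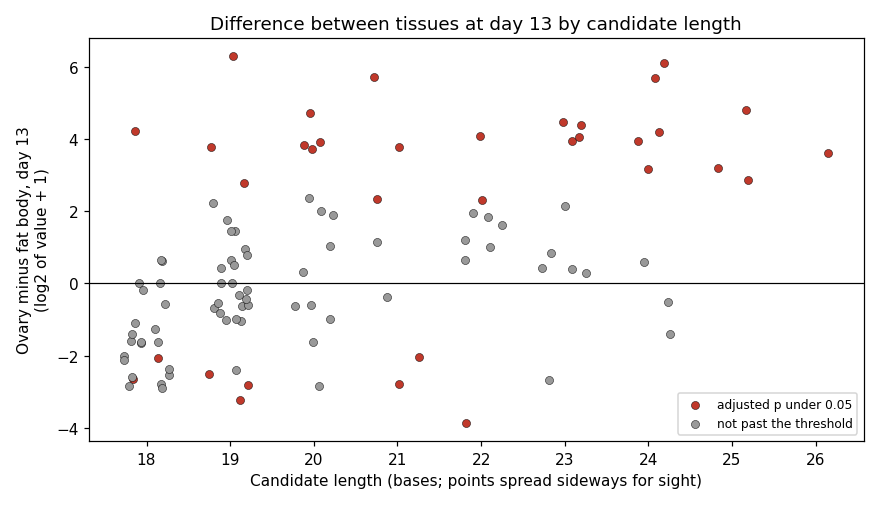
Log2 difference of ovary minus fat body at day 13 for each of the 105 candidates (1 point each) by its length in bases, with red for an adjusted p under 0.05 in limma. Most red points above 0 lie at 20 bases or more, and the medians of the 3 length classes were -0.63, 1.16 and 2.15.

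At day 1, 1 candidate of 105 differed between tissues, being higher in ovary, against 3.12% of all tested (2.49% higher and 0.623% lower), and 6 had an unadjusted p under 0.05. It was the miR-995 variant PC-3p-56906_181, with a log2 difference of 4.46 ± 1.06 (SE), which met the level threshold through ovary libraries and so had its direction fixed by the choice. This call was lost on leaving out either replicate of any group at days 1, 5 or 13. The count became 4 on leaving out either fat body day 9 library, and 9, all higher, without the day 9 second replicates, against 18.1% of all tested (12.1% higher and 5.92% lower). DESeq2 called 3 on recovered reads, against 9.03%.

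Fewer candidates were higher in fat body. PC-3p-30299_405 had 29.9 and 47.0 in ovary against 150 and 163 in fat body at day 13, with a log2 difference of -2.03 ± 0.67 (SE, adjusted p = 0.0276 in limma). With the days averaged, its log2 difference was -1.12 ± 0.34 (adjusted p = 0.0217 in limma), and 53.6 in ovary against 43.65 in fat body were measured in the day 9 second replicates. The other 3 candidates lower in ovary over the 4 days, named after their values were seen, had lower levels and, with at most 1 ovary library at 10 or more, met the threshold mainly through fat body. PC-5p-186861_37 was at most 2.46 in the 7 ovary libraries and 18.4 in the 7 of fat body, PC-3p-75630_124 at most 10.1 and 49.8, and PC-5p-518393_10 was listed at 0 in those 7 ovary libraries with up to 17.0 in fat body. Among the 8 lower in ovary at day 13 were the abundant short candidates PC-5p-31886_379 (-2.82 ± 0.96, adjusted p = 0.030), PC-3p-4072_4097 (-2.50 ± 0.85, adjusted p = 0.030) and PC-3p-2481_6747 (-2.06 ± 0.79, adjusted p = 0.0481), all log2 differences with SE from limma. The call of PC-3p-2481_6747 was lost in 18 of 27 alternative settings.

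The largest fitted change with age in ovary among the candidates was that of PC-3p-2124_7946, a sequence of 18 bases. Its ovary values were 24.4 and 8.86 at day 1, 25.3 and 3.39 at day 5, 102 in day 9 replicate 1, and 1881 and 2528 at day 13. In fat body it had 30.7 and 47.0 at day 1, 111 and 32.2 at day 5, 33.2 in day 9 replicate 1, and 200 and 68.0 at day 13. Both ovary day 13 libraries lay far above all others, while at day 1 both ovary libraries lay below both of fat body. The day 9 second replicates had 102 in ovary and 190 in fat body. Day 13 against day 1 in ovary, the log2 difference was 7.11 ± 1.00 (SE, adjusted p = 0.000205 in limma), and in fat body it was 1.60 ± 1.00 (adjusted p = 0.347). The test of the difference between these changes gave 5.51 ± 1.42 (adjusted p = 0.0231 in limma). That call was kept in 19 of 27 alternative settings and lost on leaving out any 1 library of day 1 or day 13.

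Day 13 against day 1 in ovary, 15 candidates differed, 13 higher and 2 lower, against 32.4% of all tested (22.7% higher and 9.66% lower). Among them, PC-3p-160223_45, PC-5p-121838_65 and PC-5p-119439_67 met the level threshold only through the ovary libraries of one of these days. PC-5p-55029_190 and PC-5p-45903_240 met it with no day 1 library at 10 or more. These counts thus also describe how the candidates were chosen. PC-3p-1179_12950 rose by 3.22 ± 0.80 (adjusted p = 0.00813) and PC-3p-52777_200 by 3.07 ± 0.82 (adjusted p = 0.012), as log2 differences with SE in limma. On the same scale PC-5p-55029_190 rose by 5.44 ± 1.29 and PC-5p-45903_240 by 3.91 ± 0.96. For PC-5p-55029_190 and PC-5p-45903_240 the rise is a description with no p, since they met the level threshold through libraries after day 1. For PC-3p-1179_12950, the most abundant candidate, the libraries were 759 and 4024 at day 13 against 295 and 118 at day 1, with the second day 13 library far above the first. PC-3p-52777_200 had 41.3 and 99.5 at day 13 against 10.1 and 4.43 at day 1. The lower ones were PC-5p-119439_67, described with miR-316, and PC-5p-134070_57, named after its values were seen, which was listed at 0 in both day 13 libraries against 9.34 and 4.92 at day 1.

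The split of the ovary change depended on scaling. With libraries rescaled to equal totals 10 candidates were higher and 10 lower, against 16.2% and 19.6% of all tested. With TMM factors 10 were higher and 8 lower, against 16.8% and 17.4%. These scalings moved the median log2 change of all tested sequences by -0.62 and -0.59. On recovered reads edgeR called 9 higher and 10 lower, against 16.5% and 20.2%, and DESeq2 called 9 higher and 6 lower, against 19.9% and 17.4%. Without the day 9 second replicates 32 candidates passed, 24 higher and 8 lower, against 49.8% of all tested (31.8% higher and 18.1% lower). Single libraries mattered as well. Without ovary day 1 replicate 2, 5 candidates passed, without ovary day 13 replicate 1 there were 9 and without replicate 2 there were 7, without either fat body day 1 library there were 10, and without either fat body day 9 library there were 29.

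In fat body, 5 candidates were higher at day 13 than at day 1 and none lower, against 6.85% of all tested (6.23% higher and 0.623% lower), and 18 had an unadjusted p under 0.05. All 5 had 18 or 19 bases. PC-3p-33488_357 had 90.7 and 65.6 at day 13 against 4.01 and 4.43 at day 1, a log2 difference of 3.91 ± 1.00 (SE, adjusted p = 0.0451 in limma). PC-5p-31886_379 had 216 and 138.45 at day 13 against 26.3 and 7.98 at day 1, a log2 difference of 3.47 ± 0.96 (adjusted p = 0.0461 in limma). In both, the 2 day 13 libraries lay above all other fat body libraries. The other 3 were PC-3p-77915_119, PC-5p-47402_230 and PC-5p-161891_44, named after their values were seen, with log2 differences of 3.92, 3.41 and 3.37. PC-5p-161891_44 reached 10 in its 2 fat body day 13 libraries alone, so its difference is part of how it was chosen.

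These fat body calls were unstable. They numbered 13 without the day 9 second replicates, with 12 higher and 1 lower against 24.3% of all tested (17.4% higher and 6.85% lower). With equal totals 1 was lower and none higher, against 2.18% and 0.935%, and with TMM factors 1 was lower and 1 higher, against 3.43% and 1.25%. On recovered reads edgeR called 0, against 1.25%, and DESeq2 called 10, against 17.1%. Equal totals and TMM factors moved the median log2 change of all tested sequences in fat body by -0.36 and -0.27. Leaving out 1 library gave 0 or 1 without any fat body library of day 1, 5 or 13 or any ovary library of day 5, 3 without ovary day 9 replicate 1, 4 without either ovary day 13 library, 8 without ovary day 9 replicate 2 or either ovary day 1 library, and 13 without either fat body day 9 library. Leaving out one library of a group removes that group's spread from the fit, whichever of the 2 it is.

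The difference between tissues changed from day 1 to day 13 for 3 candidates, all toward ovary, against 11.2% of all tested toward ovary and 2.80% toward fat body, and 18 had an unadjusted p under 0.05. Beside PC-3p-2124_7946 they were PC-3p-160223_45 (3.77 ± 1.12) and PC-5p-121838_65 (3.93 ± 1.19), both named after their values were seen, as log2 differences with SE in limma. PC-3p-160223_45 had 14.51 and 25.3 in ovary at day 13, against 1.18 and 0 in fat body. PC-5p-121838_65 had 14.1 and 14.47 in ovary at day 13, against 0 and 0 in fat body. Each reached 10 in those 2 ovary libraries alone, so the threshold itself chose them for the values behind this difference, and the test does not support it. Without the day 9 second replicates 19 candidates passed, 16 toward ovary against 21.5% of all tested and 3 toward fat body against 10.9%. The number was 0 or 1 on leaving out any library of days 1, 5 or 13, 6 without either ovary day 9 library and 13 without either fat body day 9 library, and 1 in edgeR on recovered reads against 10.3%. It was 1 with equal totals, toward ovary, against 9.66% and 3.43% in the 2 directions, and 1 in each direction with TMM factors, against 10.9% and 2.49%.

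Short candidates with a maximum at day 5 varied together. PC-3p-2481_6747, of 18 bases, had 344 and 327 at day 1, 1264 and 654 at day 5, 268 in day 9 replicate 1, and 33.9 and 184 at day 13 in ovary. Fat body had 272 and 259 at day 1, 1406 and 848 at day 5, 1120 in day 9 replicate 1, and 286 and 392.27 at day 13. In both tissues the day 5 libraries stood above those of day 1 and day 13, and in fat body day 9 replicate 1 lay between the 2 day 5 libraries. The day 9 second replicates had 708 in ovary and 338 in fat body. PC-3p-4072_4097 had 21.98 and 77.8 in ovary and 192 and 299 in fat body at day 13, against 1285 and 611 in ovary and 1142 and 800 in fat body at day 5. The values of these 2 age groups did not overlap in either tissue, and the day 9 second replicates had 295 in ovary and 114 in fat body. PC-3p-8533_1829 had 3.52 and 36.2 in ovary and 56.6 and 107 in fat body at day 13, against 746 and 257 in ovary and 516 and 215 in fat body at day 5.

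Over the 14 libraries, 7 candidates followed PC-3p-2481_6747 with a Pearson r of log2 values of 0.8 or more, from 0.81 to 0.97. All had 18 to 20 bases and were highest at day 5: PC-3p-8533_1829, PC-3p-4072_4097, PC-3p-27304_459, PC-3p-38123_304, PC-5p-27616_453, PC-3p-34306_346 and PC-3p-163208_44. The libraries share depth and scaling, so these r are a description. The 7 were chosen for following a candidate highest at day 5, so their shared maximum is part of that choice. The 4 day 5 libraries were also the shallowest, and known names of 18 or 19 bases took 0.479% to 0.963% of signal there, against 0.167% to 0.773% in the 10 other libraries outside the day 9 second replicates. The part of depth and of short RNA in the day 5 maximum was not tested. No genome was used here to place these short sequences, and the diet held yeast extract, so whether they are fly sequences was not tested. Their levels therefore cannot be read as levels of fly miRNAs, and their sequences are not printed.

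A second group of short candidates went with PC-5p-1954_8537. That sequence of 18 bases had 509 and 111 at day 1, 336 and 79.2 at day 5, 523 in day 9 replicate 1, and 471 and 1134 at day 13 in ovary. Fat body had 272 and 106 at day 1, 147 and 56.7 at day 5, 289 in day 9 replicate 1, and 884 and 1309 at day 13. The 2 ovary libraries were far apart at days 1, 5 and 13, and both fat body libraries were high at day 13. The day 9 second replicates had 334 in ovary and 1260 in fat body. With r from 0.81 to 0.91 it was followed by PC-3p-20717_641, PC-3p-33488_357, PC-5p-47402_230, PC-3p-36663_319, PC-5p-18326_742 and PC-5p-23563_549, all of 18 or 19 bases. PC-3p-20717_641 had 135 and 483 in ovary and 660 and 402 in fat body at day 13, against 298.14 and 47.7 in ovary and 68.6 and 26.6 in fat body at day 1. Its change with age in fat body, a log2 difference of 3.56, missed the threshold (adjusted p = 0.0508 in limma). PC-3p-36663_319 and PC-3p-33488_357 share 17 bases at a shift of 1. None of the changes of PC-5p-1954_8537 between tissues or days passed the test.

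The ovary group was the third and held longer sequences. With r from 0.85 to 0.96, 16 candidates of 19 to 26 bases followed PC-3p-13290_1089, among them PC-5p-113951_71, PC-3p-113416_72, PC-3p-185930_37, PC-5p-70062_138 and PC-5p-45903_240. All 16 were highest in ovary at day 9 or day 13. They were chosen for following a candidate that was itself highest there, so this shared peak is part of the choice and a description.

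Short candidates also differed most between replicates. In ovary at day 13, the median absolute log2 ratio between the 2 libraries was 1.27 for candidates of 18 or 19 bases, 0.62 for those of 20 or 21 bases and 0.34 for those of 22 to 26 bases, against 0.53 for known names. Of the 53 shortest candidates, 3 were higher in ovary day 13 replicate 1 than in replicate 2, whereas 46 were higher in replicate 1 at day 5. In fat body at day 13 the medians were 0.63, 0.13, 0.18 and 0.38 in the same order of classes. The shortest class had the highest median in all 6 groups outside day 9, and in both day 9 groups all classes were at 1.18 or more on this measure.

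**Figure D5:**
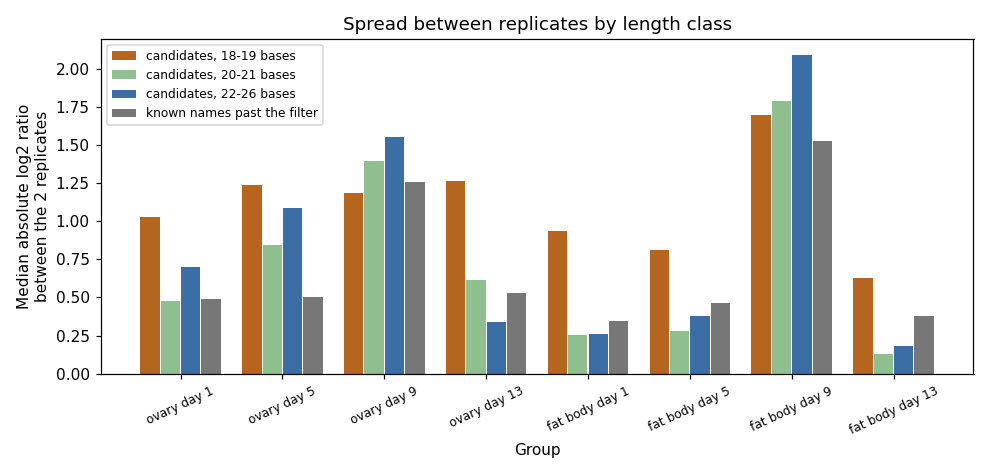
Median absolute log2 ratio between the 2 libraries of each group, by length class of the candidates and for the 215 known names, ovary groups left of fat body groups. Outside day 9 the bar of the 18-19 base candidates is the tallest in each group, at 0.63 to 1.27.

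The candidates that overlap a known miRNA numbered 4. PC-3p-56906_181 is bdo-miR-995 with 2 further bases at the 3′ end, and its seed is also that of deposited sequences named miR-998, miR-285 and miR-29b. It had 30.9 and 34.5 at day 1, 6.91 and 15.8 at day 5, 60.5 in day 9 replicate 1, and 40.9 and 48.8 at day 13 in ovary, against at most 2.89 in the 7 fat body libraries. The day 9 second replicates had 12.1 in ovary and 45.8 in fat body. With the days averaged, its log2 difference was 3.36 ± 0.53 (SE), a description, since it met the level threshold through ovary libraries. For bdo-miR-995 itself the mean was 1524 in ovary and 126 in fat body (n = 7 each), a log2 difference of 2.55 ± 0.54 (adjusted p = 0.00507 in limma).

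PC-3p-38740_298 is the deposited bdo-miR-980_R-2 with 3 further bases. In Drosophila, miR-980 is known as a regulator of neuronal excitability and memory. The candidate averaged 17.2 ± 10.98 in ovary and 19.1 ± 8.07 in fat body (SD, n = 7 each), and none of its differences passed the test. The known form averaged 59.4 in ovary and 74.3 in fat body. PC-3p-112600_72 differs from dme-miR-281-3p_1ss18CT by T23A, counted from the 5′ end with the base of the known form first. It averaged 4.43 ± 4.73 in ovary and 13.98 ± 11.99 in fat body (SD, n = 7 each), with a log2 difference of -1.16 ± 0.53 (adjusted p = 0.0991 in limma), and -1.56 (adjusted p = 0.034) without the day 9 second replicates. That known form averaged 13.1 in ovary and 33.0 in fat body. PC-3p-112600_72 also overlaps the deposited bdo-mir-281-p3 over 21 bases without mismatch, starting 1 base after it. With 809 in ovary and 1948 in fat body on average (n = 7 each), bdo-mir-281-p3 stood far above the candidate. Over the mean of the 4 days, the log2 difference of bdo-mir-281-p3 was -1.04 ± 0.35 (SE, adjusted p = 0.0364 in limma).

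PC-5p-119439_67 begins 1 base before bdo-miR-316, so its seed is shifted and differs from that of the known miRNA. It had 2.20 and 0.90 in ovary at day 13 against 15.1 and 27.1 at day 1, a log2 difference of -3.11 ± 1.12 (SE). It reached 10 in those 2 day 1 libraries alone, so this difference is part of how it was chosen. In fat body it had 0 and 2.43 at day 13 against 7.12 and 7.98 at day 1. Its day 9 second replicates had 5.36 in ovary and 4.37 in fat body. For bdo-miR-316 the day 13 libraries of ovary had 1743 and 1173 against 7226 and 8337 at day 1, a log2 difference of -2.44 ± 0.38 (adjusted p = 0.000292 in limma). Seeds alone were shared by PC-5p-90156_98 with bdo-mir-92b-p5, PC-3p-160223_45 with api-miR-3050 and PC-5p-161891_44 with a deposited tur-miR-9 variant. PC-5p-90156_98 was higher in ovary over the 4 days by 2.002 ± 0.50 (log2, SE), having met the level threshold through ovary libraries alone.

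The 5 candidates of the complementary set printed above pair over 18 to 20 bases without mismatch. No candidate was complementary in this way to a known sequence. PC-5p-11705_1265 passed no test between tissues or days in the fit to all 16 libraries. Its ovary values were 128 and 111 at day 1, 129 and 114 at day 5, 70.5 in day 9 replicate 1, and 106 and 106 at day 13. In fat body it had 127.8 and 128.5 at day 1, 79.8 and 88.9 at day 5, 88.1 in day 9 replicate 1, and 134 and 143 at day 13. The tissues overlapped, the means were 109 ± 19.5 in ovary and 113 ± 26.2 in fat body (SD, n = 7 each), and the day 9 second replicates had 59.0 in ovary and 63.3 in fat body. PC-5p-36257_323, which holds the same 21 bases from 1 base further upstream, averaged 39.2 ± 10.6 in ovary and 26.7 ± 7.83 in fat body (SD, n = 7 each).

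The PC-3p candidates of this set had lower levels. At day 13, PC-3p-58057_177 had 45.7 and 46.1 in ovary against 9.42 and 9.72 in fat body, PC-3p-50770_211 had 33.0 and 38.9 in ovary against 5.90 and 14.6 in fat body, and PC-3p-106115_78 had 14.1 and 16.7 in ovary against 2.95 and 6.07 in fat body. The log2 differences of 2.15 ± 0.84, 1.83 ± 0.75 and 1.63 ± 0.77 missed the threshold (adjusted p = 0.0512, 0.0631 and 0.0924 in limma) and passed it without the day 9 second replicates (adjusted p = 0.012, 0.033 and 0.026). These 3 sequences overlap and are not independent. Over the mean of the 4 days none of the 5 differed between tissues in either fit.

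PC-5p-8439_1855, of 20 bases and with no call in any comparison, had its lower values at days 5 and 9 in both tissues. In ovary it had 155 and 126 at day 1, 76.0 and 41.9 at day 5, 42.4 in day 9 replicate 1, and 80.5 and 180.83 at day 13. Fat body had 124 and 130 at day 1, 43.0 and 78.2 at day 5, 28.9 in day 9 replicate 1, and 191 and 175 at day 13. The tissues overlapped, and the day 9 second replicates had 18.8 in ovary and 45.8 in fat body.

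Among the candidates highest in the groups not yet described, PC-3p-14502_982 led those of ovary day 1, with 89.8 and 94.01 in ovary and 75.2 and 91.3 in fat body at day 1. It was lowest at day 9, with 16.2 in ovary and 8.67 in fat body in replicate 1, and 14.7 in ovary and 12.0 in fat body in replicate 2. It was followed by PC-3p-50430_213, with 40.2 and 35.0 in ovary and 28.5 and 33.7 in fat body at day 1, which pairs over 20 bases with PC-5p-176040_40, a sequence below the threshold. PC-5p-22811_571 came second in ovary day 5 with 159 and 15.8, replicates far apart. PC-5p-32660_368 led fat body day 1 with 51.6 and 62.0 and had 5.89 and 15.8 there at day 13, a log2 difference of -2.42 ± 0.71 (SE, adjusted p = 0.0524 in limma, and 0.019 without the day 9 second replicates). PC-5p-59670_170 came second there with 20.5 and 26.6. In fat body day 9 replicate 1, PC-5p-71740_133 led with 27.45 and PC-5p-108889_76 followed with 23.1.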

How the data were processed

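Small RNAs of 16 libraries were read from 1 deposited table. Its values are the authors' normalised signal per mature sequence, per the file headers; adapters, low complexity reads, other RNA families and repeats were removed with ACGT101-miR, per the labels' protocols. How the values were scaled is not given in the sources used here, nor is a genome build. Low values were whole multiples of a step (92.3% to 96.1% of values under 20, tolerance 0.1), which gave recovered reads. Reads carry no molecular identifiers, so no counting intervals are given. Replicates were no copies (chi-square per degree of freedom 26.6 to 1836). The 41 repeated entries were summed. Limma 3.58.1 (R 4.3.3) fitted 8 group means to log2(value + 1) of 321 sequences, with an intensity trend. It had 8 residual and 4.915 prior degrees of freedom and a threshold of 0.05 on the adjusted p. The fit was tested on simulated data that took the replicate spread of the groups outside day 9. That test does not cover the wider spread within the day 9 groups. Alternatives, including edgeR 4.0.16 and DESeq2 1.42.0 on the recovered reads of 15 libraries (added after seeing the data), are in the closing section. The library left out of these 15 was ovary day 9 replicate 2, while fat body day 9 replicate 2 was kept. In the library left out, 93.9% of low values were whole multiples, within the range of the others. Read recovery thus gives no ground for leaving it out. The library kept went against its label on the ovary list, and the fits to reads were not run without it. Labels do not say whether replicates came from separate flies beyond calling them biological, so p-values measure the spread between these libraries. Candidates, lists and tests were chosen with earlier results of these data known. Named candidates are the 10 most abundant, up to 5 per direction and comparison with the largest change and a group mean of at least 50, the 2 highest of each group, those related to another sequence, and the 3 nearest the threshold on each side; a few others are marked in the text as named after their values were seen.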

Additional observations from a re-analysis of the deposited data

Results flagged for a closer look

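The change of the tissue difference from day 1 to day 13 (ovary minus fat body at day 13, minus the same at day 1, log2) passed the test of that difference itself in limma for 3 candidates. It was 5.51 for PC-3p-2124_7946, with 1881 and 2528 in ovary against 200 and 68.0 in fat body at day 13, and 24.4 and 8.86 in ovary against 30.7 and 47.0 in fat body at day 1. It was 3.77 for PC-3p-160223_45 and 3.93 for PC-5p-121838_65, but both met the level threshold through the ovary day 13 libraries alone, so the choice of members used the values behind this test and the test does not support these 2 differences.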

How the results depend on the processing

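Without the day 9 second replicates the calls were 41 in place of 24 for the tissues over 4 days, 9 at day 1, 45 at day 13, 32 with age in ovary, 13 with age in fat body and 19 for the change of the tissue difference. At day 1 between tissues, 1 call became 0 with a pseudocount of 10, with no filter on low values and with no intensity trend, 9 without the 4 day 9 libraries and 3 in DESeq2. Day 13 against day 1 in ovary, 15 became 32 without the 4 day 9 libraries. In fat body, 5 became 12 with a pseudocount of 10, 1 with no filter, equal totals or no trend, 2 with TMM factors, 13 without the 4 day 9 libraries, 0 in edgeR and 10 in DESeq2. For the change of the tissue difference, 3 became 7 with a pseudocount of 10, 1 with equal totals, 5 with no trend, 18 without the 4 day 9 libraries and 1 in edgeR. The number of candidates was 172 at 5 or more in 2 libraries and 62 at 20 or more. On leaving out 1 library, the calls ranged over 18 to 37 for the tissues over 4 days, 0 to 4 at day 1, 17 to 45 at day 13, 5 to 29 with age in ovary, 0 to 13 with age in fat body and 0 to 13 for the change of the difference, and the share over 0.669% to 0.838% in ovary and 0.492% to 0.571% in fat body. Of 22 named values under 27 alternatives each, none changed direction and 9 kept their call in all. Most of these 9 were tissue differences of PC-3p-13290_1089, PC-5p-45903_240, PC-5p-70062_138 and PC-5p-55029_190. The direction of those differences was fixed by how the candidates were chosen, so their stability is no support. The others of the 9 were changes with age in ovary of PC-3p-2124_7946 and PC-5p-55029_190. PC-5p-55029_190 met the level threshold with no day 1 library at 10 or more, so the stability of its change is no support either.

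Whether replicate numbers pair libraries was not settled. The log2 difference of replicate 1 minus replicate 2 was correlated over sequences between groups, in 28 pairs of groups. These r ran from -0.753 to 0.362, and 9 were over 0.1. The lowest was that between ovary and fat body at day 9, the groups that hold the 2 libraries set apart. With the replicate block the calls were 23 over 4 days, 0 at day 1, 30 at day 13, 14 with age in ovary, 1 with age in fat body and 1 for the change of the difference. Low candidates are limited by depth, since 1 read was worth 0.44 to 3.07 units of signal.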
